A study of Rattus norvegicus and Mus musculus with 24 samples.

Results

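The cell cycle cyclins and the cyclin-dependent kinases (CDKs) that they switch on were followed in kidneys of animals that lack Ctns, the gene of the lysosomal cystine exporter cystinosin. The group was set by name and by no measured value: the D-type cyclins CCND1, CCND2 and CCND3, the E-type cyclins CCNE1 and CCNE2, the A- and B-type cyclins CCNA2, CCNB1 and CCNB2, and the kinases CDK1 and CDK2, 10 genes in all. Each was taken from the row whose symbol equals its name. All 10 were among the 17376 symbols of the mouse table, and 7 were among the 14931 symbols of the rat table; CCND2, CCNB1 and CCNB2 were not analysed in the rat. Symbols are written in capitals in both tables, also where the gene is a rodent one.

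Cyclins are regulatory proteins that rise and fall through the division cycle, and a CDK is inactive without one. D-type cyclins are made when growth signals reach a cell and act early in G1 with CDK4 and CDK6, and they are also present in many epithelial cells that do not divide. E-type cyclins act with CDK2 at the entry into DNA synthesis, cyclin A2 with CDK2 and later CDK1 through S and G2 phase, and B-type cyclins with CDK1 at mitosis. Tubule cells of the healthy adult kidney divide rarely and re-enter the cycle after injury.

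RNA was sequenced from kidney of 4 Ctns KO and 4 wild-type (WT) mice on a C57BL/6 background and from 8 Ctns KO and 8 WT rats on a Sprague-Dawley background, 24 animals with 1 library each, and the controls were littermates. The deletion is present in the whole animal, and no treatment is given for any of these samples. The labels name the tissue as kidney cortex and the cells as proximal tubule cells, and their extraction text speaks of dissected tubules. The mice were littermates of 24 weeks where proximal tubule segments are described, and the age of the rats profiled is not given in the sources used here. Rat numbers run from 17 to 24 and from 25 to 32, with 4 KO and 4 WT animals in each range; what the ranges stand for is not given in the sources used here, and they are called rats 17-24 and rats 25-32 below.

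Reads assigned to symbols came to 19309449 to 44449859 per mouse and 24684097 to 40629873 per rat. CTNS was lower in the KO mice, at deposited scaled values of 0.319 to 0.342 against 0.824 to 1.03 in WT (0.363-fold, adjusted p = 1.64e-07). In rats its level is given as reads scaled to a library total adjusted by the trimmed mean of M values (TMM), called CPM. CTNS ranged from 16.8 to 22.2 CPM in KO and from 19.2 to 27.8 CPM in WT rats, so that the groups overlapped (0.857-fold, edgeR, adjusted p = 0.0154). CTNS reads did not by themselves tell KO from WT rats. The library of KO mouse 3 stood apart: it held 49 reads of XIST, the RNA of the inactive X chromosome, against 17581 to 42003 in the other 7 mice. The methods of the study speak of female mice alone, and the XIST reads of this library go against that. The mouse calls of the 10 genes are therefore given with and without it, and mouse values of other genes include it. Markers of proximal tubule were present in every library, but so were those of thick limb, distal tubule and collecting duct, with summed scaled values of 173.1 to 228.4 in mice beside 275.9 to 386.9 for proximal tubule, so the libraries held RNA of other segments too. In bulk tissue, fewer cells of a type and less RNA per cell cannot be told apart.

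The start regions of the rat genes are shown first, so that members that rose and members that did not can be set side by side. RefSeq's promoter table for the rat (GRCr8) holds 6 of the 10 genes, each as 250 bases before to 50 bases after an annotated start. Printed here are Cdk1 and Ccne1, which were higher in KO rats, and Cdk2 and Ccnd3, which did not pass the test. Capitals mark 3 kinds of short motif searched on both strands: the cell cycle homology region (CHR, TTTGAA or TTCGAA), the CCAAT box (CCAAT) and E2F-type letters (TTCCCGC or TTCGCGC or TTGCCGC or TTGGCGC).
Cdk1 (chr20:19265043-19265342, plus strand): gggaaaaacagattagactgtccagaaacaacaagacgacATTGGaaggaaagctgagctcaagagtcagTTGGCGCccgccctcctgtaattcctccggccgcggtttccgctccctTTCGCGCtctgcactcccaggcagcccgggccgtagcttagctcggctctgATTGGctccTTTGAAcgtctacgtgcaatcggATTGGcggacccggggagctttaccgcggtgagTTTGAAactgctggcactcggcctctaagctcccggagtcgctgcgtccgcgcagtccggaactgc
Ccne1 (chr1:99927860-99928159, minus strand): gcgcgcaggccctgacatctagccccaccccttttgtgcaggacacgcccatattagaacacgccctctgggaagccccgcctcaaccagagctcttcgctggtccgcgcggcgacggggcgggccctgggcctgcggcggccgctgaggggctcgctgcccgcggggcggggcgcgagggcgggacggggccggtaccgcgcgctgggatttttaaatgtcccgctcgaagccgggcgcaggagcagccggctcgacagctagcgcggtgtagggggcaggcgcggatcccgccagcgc
Cdk2 (chr7:1721829-1722128, minus strand): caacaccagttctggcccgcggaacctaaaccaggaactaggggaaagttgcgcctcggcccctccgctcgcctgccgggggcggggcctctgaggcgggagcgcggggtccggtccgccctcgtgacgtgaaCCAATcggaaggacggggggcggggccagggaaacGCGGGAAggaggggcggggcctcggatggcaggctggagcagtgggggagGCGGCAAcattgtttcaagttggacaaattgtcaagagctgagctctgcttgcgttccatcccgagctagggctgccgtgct
Ccnd3 (chr9:20897826-20898125, minus strand): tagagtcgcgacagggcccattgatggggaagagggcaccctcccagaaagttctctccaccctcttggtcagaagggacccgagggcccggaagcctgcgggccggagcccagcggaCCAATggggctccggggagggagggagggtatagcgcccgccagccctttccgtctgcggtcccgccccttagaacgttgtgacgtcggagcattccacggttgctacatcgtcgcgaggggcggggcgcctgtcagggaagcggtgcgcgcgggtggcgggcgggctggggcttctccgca

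The Cdk1 window held 2 CHR matches, 3 CCAAT boxes and 2 E2F-type matches, with a CHR at 72 and another at 16 bases before the start (positions -72 and -16). The Cdk2 window held 1 CCAAT box and 2 E2F-type matches and no CHR, the Ccnd3 window 1 CCAAT box alone, and the Ccne1 window none of the 3 motifs by these letters. Of the B-type cyclins, which were measured only in mice here, the rat Ccnb2 window held 2 CHR matches, 3 CCAAT boxes and 1 E2F-type match, and the rat Ccnb1 window 2 CCAAT boxes. Over all 33469 rat windows of 300 bases, 19.7% held a CHR, 37.5% a CCAAT box and 9.5% an E2F-type match. A match is a run of letters and not a shown binding site, and these motifs overlapped no other marked motif in the printed windows.

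In mice, CCNA2, CCNB2 and their kinase CDK1 were 5.71 to 6.34 times as high in KO as in WT kidneys, and CCND1 was 1.59 times as high. CCNB1 was 7.06 times as high, but it passed the filter on low counts only through the KO mice. The other D-type cyclins, the E-type cyclins and CDK2 did not pass the test. Of the 10 genes 5, with CCNB1 counted, were higher and 0 lower at an adjusted p below 0.05 (limma), where 6.36% of the 13442 symbols tested were higher. The median log2 fold change was 2.51 for the 5 E-, A- and B-type cyclins, of which 3 were higher, and 0.32 for the 3 D-type cyclins, of which 1 was higher, beside 0.012 over all symbols tested. All levels below are the deposited scaled values, in which 1 is the value at the 75th percentile of a library. Overlap of the genotypes is described per gene, and the share of all symbols without overlap was not counted.

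CCNA2, cyclin A2 (GRCm38 chr3:36564865-36572150), stood at 0.180, 0.236, 0.161 and 0.113 in KO mice 3, 5, 6 and 8 and at 0.0283, 0.0433, 0.0161 and 0.0243 in WT mice 1, 2, 4 and 7. The lowest KO mouse was above the highest WT mouse, and the reads behind these values were 172 to 307 in KO and 23 to 50 in WT. The log2 fold change was 2.66 ± 0.30 (SE, n = 4 against 4), with an adjusted p of 0.000281 by limma.

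CDK1, the mitotic kinase that cyclin A2 and the B-type cyclins activate (chr10:69335146-69352938), stood at 0.162, 0.187, 0.121 and 0.0985 in the KO mice and at 0.0219, 0.0323, 0.0271 and 0.0127 in the WT mice, in the same order. The groups again did not overlap, and mouse 5 was the highest and mouse 8 the lowest KO animal for both CDK1 and CCNA2. Its log2 fold change was 2.63 ± 0.29 (SE, n = 4 against 4; limma, adjusted p = 0.00017).

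CCNB2, cyclin B2 (chr9:70407692-70421547), followed the same order among KO mice, at 0.133, 0.158, 0.0867 and 0.0729, and stood at 0.0124, 0.0290, 0.0216 and 0.0161 in WT mice. CCNB1, cyclin B1 (chr13:100778650-100786570), stood at 0.0413, 0.0575, 0.0306 and 0.0253 in KO and at 0.00508, 0.00712, 0.00652 and 0.00312 in WT mice. Neither B-type cyclin overlapped between genotypes. CCNB1 was the lowest of the 10 genes in WT mice, with 6 to 9 reads there and 39 to 75 in KO mice, and its values in KO mouse 5 and WT mouse 1 were not whole reads, so that reads may be shared with another copy there. The WT reads of CCNB1 fell short of the filter on low counts, so it was tested only because its KO reads passed. Their log2 fold changes were 2.51 ± 0.30 for CCNB2 (adjusted p = 0.000241 by limma) and 2.82 ± 0.35 for CCNB1 (adjusted p = 0.000216 by limma).

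CCND1, cyclin D1 (chr7:144929931-144939925), was the most abundant of the cyclins, at 8.50, 9.04, 9.95 and 8.34 in KO mice 3, 5, 6 and 8 and 4.99, 5.86, 6.06 and 5.61 in WT mice 1, 2, 4 and 7. Groups did not overlap although the change was small beside that of the mitotic cyclins, at a log2 fold change of 0.67 ± 0.08 (SE; limma, adjusted p = 0.00017). CCND2 (chr6:127125162-127152193), a D-type cyclin with the same partners, stood at 0.388 to 0.457 in KO and 0.302 to 0.389 in WT mice, overlapping by 1 KO animal, with a log2 fold change of 0.32 and a 95% interval of 0.11 to 0.53 (adjusted p = 0.0616 by limma). When the libraries were scaled by their totals, CCND2 passed the test (log2 fold change 0.39, adjusted p = 0.0161), and it also passed without WT mouse 2 (adjusted p = 0.0325) or WT mouse 7 (adjusted p = 0.0458). CCND3 (chr17:47505051-47599691) stood at 2.67 to 3.02 in KO and 2.66 to 3.25 in WT mice, with a log2 fold change of -0.07 and an interval of -0.23 to 0.08.

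The E-type cyclins were rare in mouse kidney, with 12 to 56 reads for CCNE1 and 21 to 54 for CCNE2. CCNE1 (chr7:38097984-38107534) stood at 0.0319, 0.0242, 0.0356 and 0.0146 in KO and 0.00794, 0.0203, 0.0113 and 0.0142 in WT mice, so that KO mouse 8 lay within the WT range. Its log2 fold change of 0.99 (interval 0.23 to 1.74) did not pass (limma, adjusted p = 0.109), but passed without KO mouse 8 (adjusted p = 0.0441) or WT mouse 2 (adjusted p = 0.041). CCNE2 (chr4:11191351-11204779) ranged from 0.0265 to 0.0507 in KO and 0.0148 to 0.0302 in WT mice, with a log2 fold change of 0.50 and an interval of -0.10 to 1.0976. CDK2 (chr10:128697939-128705031), the kinase of cyclins E and A, stood at 0.340 to 0.384 in KO and 0.292 to 0.395 in WT mice, with a log2 fold change of 0.11 and an interval of -0.11 to 0.33.

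**Figure D1:**
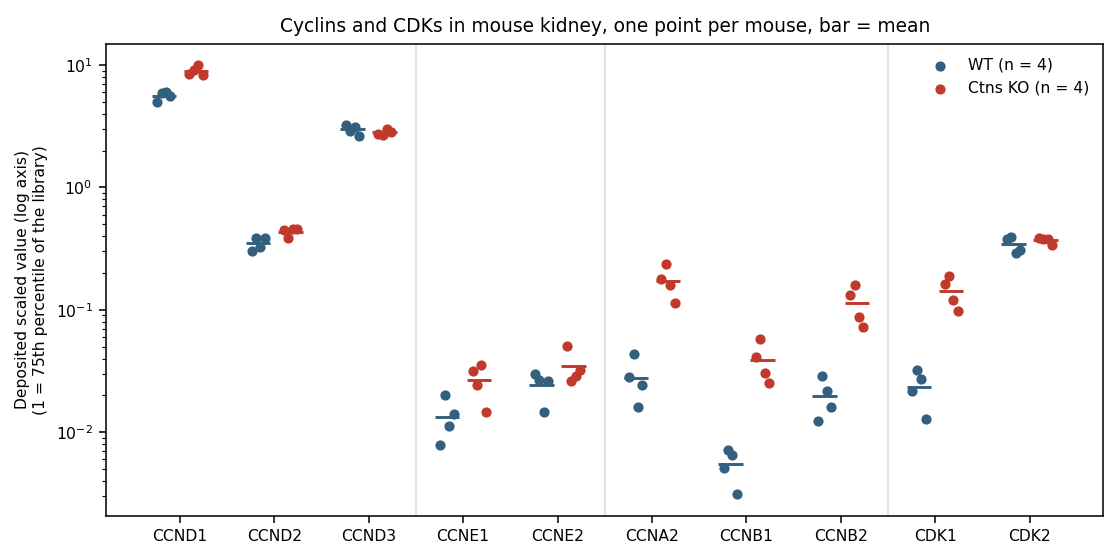
Deposited scaled value of each gene in each mouse (log axis, 1 is the 75th percentile of a library), with WT in blue, Ctns KO in red and bars at the means of 4 mice. CCND1, CCNA2, CCNB1, CCNB2 and CDK1 do not overlap between genotypes, and CCND1 sits near 5 to 10 while the E-, A- and B-type cyclins of WT mice sit below 0.05. The share of all symbols without overlap was not counted.

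Without KO mouse 3, the same 5 genes were higher in mice: CCNA2 at a log2 fold change of 2.63, CCNB1 at 2.77, CCNB2 at 2.41, CDK1 at 2.55 and CCND1 at 0.69, with adjusted p between 0.000915 and 0.00182. CCNE2 moved most without it, from 0.50 to 0.30, since mouse 3 had the highest CCNE2 value. The 5 calls, with CCNB1 and its limit from the filter counted, were also kept in each of the other fits that left out 1 mouse.

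Levels can be set against each other only per length. In WT mice, reads per kilobase of exon scaled to library depth (RPKM) gave the order CCND1 (56.3 ± 4.68, SD, n = 4), CCND3 (15.98 ± 1.54), CDK2 (2.60 ± 0.36), CCND2 (1.75 ± 0.20), CCNB2 (0.596 ± 0.21), CCNE2 (0.324 ± 0.089), CCNA2 (0.317 ± 0.13), CCNE1 (0.230 ± 0.088), CDK1 (0.221 ± 0.078) and CCNB1 (0.0578 ± 0.018). From CCNB2 down to CDK1 each neighbour overlapped the next over the 4 mice, while CCND1, CCND3, CDK2 and CCND2 were each clear of the next. In KO mice CCNB2 rose to 3.64 ± 1.31 RPKM, next after CCND3 and overlapping CDK2 at 2.93 ± 0.15, and CCNA2 at 2.09 ± 0.63 overlapped CCND2 at 2.29 ± 0.16. CCND1 at 94.1 ± 6.70 and CCND3 at 15.9 ± 0.68 kept the first places in KO mice, and CCNB1 at 0.451 ± 0.17 kept the last, now within the range of both E-type cyclins. Levels per length were not computed for the rat.

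In rats, CCNA2, CDK1 and CCNE1 were higher in KO kidneys in both number ranges, CCNE2 was higher by less, CCND1 was higher in rats 17-24 and did not pass the test in rats 25-32, and CCND3 and CDK2 did not pass in either. Over both ranges 5 of the 7 genes were higher and 0 lower (edgeR quasi-likelihood test), where 21.4% of the 11839 symbols tested were higher. In rats 17-24 the same 5 were higher, where 5.05% of all symbols were, and in rats 25-32 it was 4 of 7, where 23.7% were. Rat levels below are CPM after normalization with the trimmed mean of M values (TMM). As in mice, the share of all symbols without overlap between genotypes was not counted.

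CDK1 in rats 18, 20, 22 and 24 (KO) stood at 7.31, 9.49, 11.2 and 8.37 CPM, and in rats 17, 19, 21 and 23 (WT) at 2.30, 2.07, 2.34 and 2.36 CPM. In rats 26, 28, 30 and 32 (KO) it stood at 18.6, 17.7, 17.2 and 18 CPM, and in rats 25, 27, 29 and 31 (WT) at 2.98, 2.67, 2.83 and 2.27 CPM. All KO rats were above all WT rats, and every KO rat of the higher number range was above every KO rat of the lower one. The log2 fold change was 2.003 ± 0.13 in rats 17-24 (SE, edgeR, adjusted p = 2.7e-08) and 2.73 ± 0.13 in rats 25-32 (edgeR, adjusted p = 1.19e-10).

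CCNA2 stood at 4.28, 5.02, 6.23 and 4.88 CPM in KO and 1.45, 1.09, 0.892 and 1.13 CPM in WT animals of rats 17-24. In rats 25-32 it stood at 9.25, 8.43, 8.24 and 8.31 CPM in KO and 1.01, 1.37, 1.40 and 0.817 CPM in WT. As for CDK1, the WT animals of both ranges lay together and the KO animals of the ranges lay apart. The log2 fold changes were 2.17 ± 0.17 (edgeR, adjusted p = 3.94e-07) and 2.88 ± 0.17 (edgeR, adjusted p = 1.61e-09).

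CCNE1, which with CDK2 drives the entry into S phase, stood at 1.12, 1.63, 1.83 and 1.88 CPM in KO and 0.443, 0.767, 0.523 and 0.566 CPM in WT animals of rats 17-24. In rats 25-32 it stood at 2.61, 2.48, 2.76 and 3.63 CPM in KO and 0.633, 0.414, 0.679 and 0.520 CPM in WT. Genotypes did not overlap although the gene was rare, at 35 to 90 reads in KO and 11 to 26 in WT rats. The log2 fold changes were 1.47 ± 0.23 (edgeR, adjusted p = 0.000613) and 2.36 ± 0.23 (edgeR, adjusted p = 3.65e-07).

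CCNE2 stood at 3.07, 3.39, 3.91 and 3.61 CPM in KO and 2.38, 1.92, 2.09 and 2.2 CPM in WT animals of rats 17-24, with no overlap. In rats 25-32 the KO animals fell apart, rats 26 and 30 at 3.82 and 3.86 CPM and rats 28 and 32 at 2.07 and 2.38 CPM, and WT rat 27 at 2.61 CPM was above the latter pair. The log2 fold change was 0.71 ± 0.19 in rats 17-24 (edgeR, adjusted p = 0.0355) and 0.56 ± 0.20 in rats 25-32 (edgeR, adjusted p = 0.0247). The first call was lost without rat 19, 20, 21, 22, 23 or 24 (adjusted p 0.0698 to 0.0958) and the second without rat 25, 26, 29 or 30 (0.0528 to 0.0917) or with rats 25-32 fitted alone (0.0781), whereas the call over both ranges (log2 fold change 0.63, adjusted p = 0.0013) held without any single rat.

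CCND1 stood at 248, 340, 243 and 313 CPM in KO and 156, 213, 194 and 252 CPM in WT animals of rats 17-24, overlapping. In rats 25-32 it stood at 323, 328, 338 and 326 CPM in KO and 309, 283, 331 and 317 CPM in WT, and WT rat 29 lay among the KO values. The log2 fold change was 0.49 ± 0.12 in rats 17-24 (edgeR, adjusted p = 0.0203) and 0.08 in rats 25-32, with an interval of -0.17 to 0.34 (edgeR, adjusted p = 0.587). The call in rats 17-24 was lost when these rats were fitted alone (adjusted p = 0.12) and without rat 20, 21 or 24 (0.0685 to 0.0797), and the call over both ranges (log2 fold change 0.29, adjusted p = 0.0123) was lost without the number range in the fit (0.169). CCND1 also differed between WT animals: it was 1.52 times as high in WT rats 25-32 as in WT rats 17-24 (edgeR, log2 fold change 0.60 ± 0.12, adjusted p = 0.00194).

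The 2 remaining genes moved little. CCND3 stood at 68.9 to 79.3 CPM in KO and 73.8 to 84.3 CPM in WT rats, with a log2 fold change over both ranges of -0.10 and an interval of -0.18 to -0.01 (edgeR, adjusted p = 0.0651). CDK2 stood at 17.96 to 23.7 CPM in KO and 19.8 to 25.5 CPM in WT rats, with a log2 fold change of -0.08 and an interval of -0.16 to 0.01 (edgeR, adjusted p = 0.141). With library totals in place of TMM these small differences moved to -0.001 for CCND3 and to 0.02 for CDK2, so the sign of CDK2 turned. CDK2 was lower in WT rats 25-32 than in WT rats 17-24 (log2 fold change -0.20 ± 0.06, edgeR, adjusted p = 0.0193). CCND1 and CDK2 were the 2 of 7 genes to differ between WT ranges, where 21.1% of all symbols differed, and the CDK2 call was lost without rat 21 (adjusted p = 0.068). The WT animals of this comparison are also the controls of the KO effects above.

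**Figure D2:**
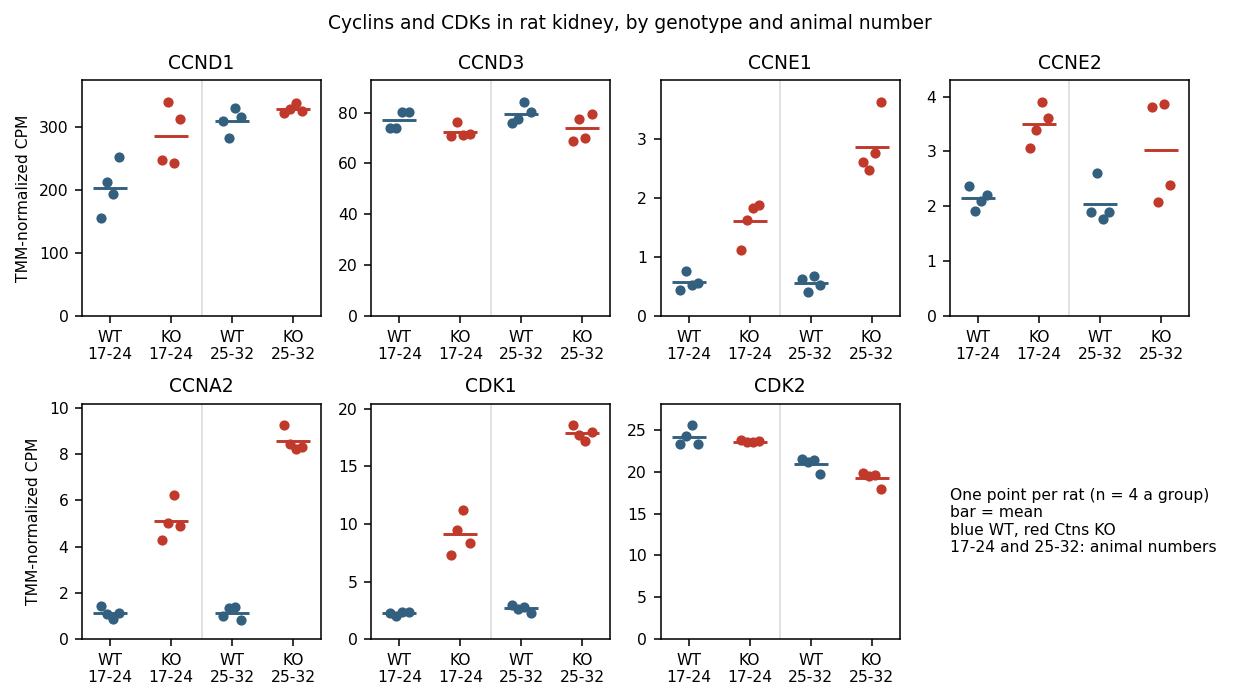
TMM-normalized CPM of the 7 genes in each rat, by genotype (WT blue, Ctns KO red) and animal number, with bars at the means of 4 rats and axes from 0. CDK1, CCNA2 and CCNE1 are higher in KO rats of both ranges and highest in KO rats 25-32. CCND1 of rats 25-32 sits at 283 to 331 CPM in WT and at 323 to 338 CPM in KO.

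The change of the KO effect between ranges was tested directly. It passed for 1 of the 7 genes, where it passed for 14.7% of all symbols: CDK1 had an effect larger by 0.73 ± 0.18 on the log2 scale in rats 25-32 (edgeR, adjusted p = 0.0124). CCNA2 (0.71, interval 0.19 to 1.2375, adjusted p = 0.061) and CCNE1 (0.90, interval 0.19 to 1.60, adjusted p = 0.0765) had differences of like size that did not pass by edgeR, and CCNA2 passed by DESeq2 (adjusted p = 0.0363). For CCND1 the difference was -0.40 with an interval of -0.77 to -0.04 (edgeR, adjusted p = 0.115), for CCNE2 -0.14 (-0.73 to 0.44), for CCND3 -0.02 (-0.19 to 0.16) and for CDK2 -0.09 (-0.27 to 0.08). CCNA2 also passed without rat 21 (adjusted p = 0.0483) or rat 22 (0.0452), and CCND1 without rat 23 (0.0321). Both genotypes of a range share that range, and what the ranges stand for was not tested.

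**Figure D3:**
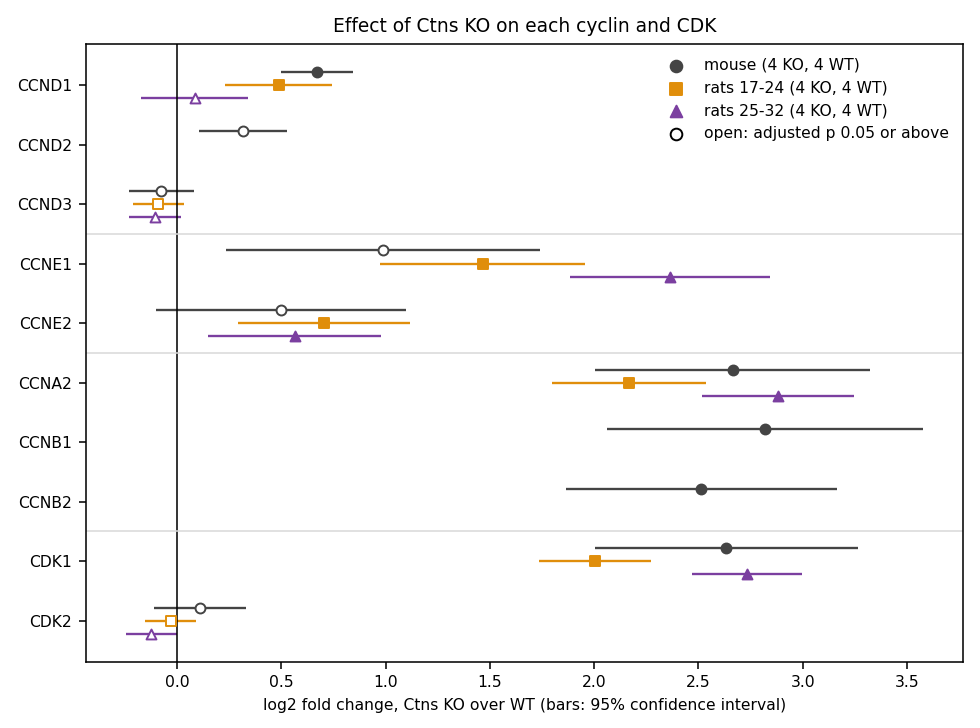
Log2 fold change of Ctns KO over WT with its 95% confidence interval for each gene, in mice (circles), rats 17-24 (squares) and rats 25-32 (triangles), filled where the adjusted p was below 0.05. CCNA2, CCNB1, CCNB2 and CDK1 lie at 2.003 to 2.88, CCND1 at 0.08 to 0.67, and CCND3 and CDK2 between -0.12 and 0.11.

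The D-type cyclin CCND1 and the later cyclin CCNA2 can also be compared within each library, where scaling cancels. Per 1000 CCND1 reads there were 13.5 to 26.02 CCNA2 reads in KO and 2.60 to 7.29 in WT mice. In rats the values were 14.7 to 25.6 in KO and 4.49 to 9.28 in WT animals of rats 17-24, and 24.4 to 28.7 and 2.58 to 4.84 in rats 25-32. CCNA2 was thus higher relative to CCND1 in every KO animal than in every WT animal of its species and range. Per 1000 CDK2 reads, CDK1 reads numbered 289 to 498 in KO and 40.3 to 91.8 in WT mice, 308 to 476 and 85.4 to 101 in rats 17-24, and 878 to 1002 and 115 to 139 in rats 25-32. In KO rats 25-32 the 2 kinases had nearly equal read numbers, but levels per length were not computed for the rat, so equal levels cannot be read from this. These ratios describe the named pairs only. Ratios of other cyclins to CCND1 were not computed, and in mice both E-type cyclins overlapped between genotypes. The contrast between cyclin classes was not put to a test.

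**Figure D4:**
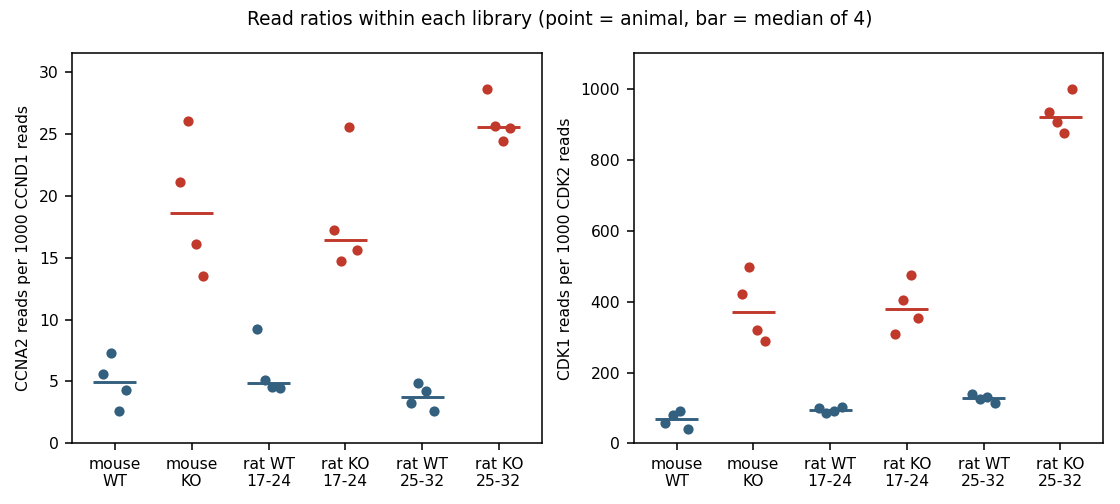
CCNA2 reads per 1000 CCND1 reads (left) and CDK1 reads per 1000 CDK2 reads (right) in each library, with bars at the medians of 4 animals and axes from 0. KO animals lie above the WT animals of the same species and number range in both ratios.

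Between species the KO effects of the 7 genes measured in both were compared in 1 fit, rat minus mouse. None of the 7 passed by limma, where 10.9% of 10818 symbols did; at an unadjusted p under 0.05 there were 2, CCNE1 (larger in rats by 0.95, interval 0.20 to 1.69, adjusted p = 0.0891) and CCND1 (smaller by 0.34, interval -0.62 to -0.06, adjusted p = 0.11). For CDK1 and CCNA2 the differences were -0.24 (interval -0.78 to 0.31) and -0.09 (interval -0.72 to 0.53). CCNE1 passed without WT mouse 1 (adjusted p = 0.0432) and CCND1 without WT rat 17 (0.0338). On values with 1 added before taking logs, which weighs down rare genes, 2 of the 7 passed, CDK1 with the sign turned (0.13, adjusted p = 0.000399) and CCNE1 (0.03, adjusted p = 0.0159).

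Other genes of the division cycle were described from lists, to be read against all symbols tested, of which 6.36% were higher and 2.29% lower in KO mice, and 21.4% higher and 22.6% lower in KO rats over both ranges. Of 9 proliferation markers, DNA replication and mitosis genes, 8 were higher in mice and all 8 tested were higher in rats over both ranges, with medians of 0.62 and 1.05 beside 0.012 and -0.021 over all symbols. MKI67, the Ki-67 antigen of dividing cells, changed by 2.55 ± 0.25 in mice and 2.17 ± 0.12 in rats (log2 fold change ± SE), close to CCNA2 and CDK1. The replication helicase subunits MCM5 (1.52 and 2.03), MCM3 (1.33 and 1.70) and MCM4 (0.62 and 0.69) were higher in both species.

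Genes for CDK inhibitors were also among those that rose: 2 of 7 tested were higher in mice, and in rats 4 of 5 were higher and 1 lower (6.36% of all symbols higher in mice, 21.4% higher and 22.6% lower in rats). CDKN1A, which codes for p21 and blocks cyclin-CDK complexes, changed by 2.87 ± 0.17 in mice and 2.86 ± 0.11 in rats on the log2 scale, as much as the mitotic cyclins. CDKN3, a phosphatase that acts on CDKs and is itself made by dividing cells, changed by 3.89 ± 0.51 and 2.45 ± 0.16. CDKN2B (1.44, adjusted p = 0.0504 by limma) and CDKN2C (0.41, adjusted p = 0.0522) did not pass in mice and were higher in rats (1.37, adjusted p = 0.00202 and 0.26, adjusted p = 0.00438 by edgeR). The effect on CDKN1A was larger in rats 25-32 than in rats 17-24 by 2.17 on the log2 scale (edgeR, adjusted p = 3.1e-05), the direction seen for CDK1. Of 8 proliferation markers tested, 4 had a larger effect in rats 25-32, where 14.7% of all symbols differed in either direction. MKI67 was not among them, with a difference of 0.04 (edgeR, adjusted p = 0.912).

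Among partners of the CDKs, 2 of 8 were higher in mice, where 6.36% of all symbols were, and 4 of 10 in rats, where 21.4% were. CCNF, an F-box cyclin of G2 phase, changed by 2.07 and 2.26, CKS1B, a small CDK-binding subunit, by 0.64 and 0.67, and CDK4, the partner of the D-type cyclins, by 0.19 (adjusted p = 0.0744 by limma) and 0.14 (adjusted p = 0.0166 by edgeR). The related CKS2, named here after its values were seen, differed between species. Its log2 fold change was -0.30 in mice (limma, adjusted p = 0.112) and 2.11 in rats (edgeR, adjusted p = 1.55e-10), and the difference between species was 2.45. Other genes of the cell cycle lists also passed that limma test, rat minus mouse, where 10.9% of symbols did. They were UBE2C (1.60), MCM6 (1.08), PKMYT1 (0.90), CCNY (-0.215), CDKN3 (-1.43) and CDC25C (-2.70). Of the genes that set CDK phosphorylation, 2 of 5 were higher in mice and 3 of 5 in rats, beside the same 6.36% and 21.4%. PKMYT1, an inhibitory kinase of CDK1, changed by 1.02 and 1.89, the activating phosphatase CDC25C by 3.23 and 0.49, and CDC25B by 0.21 (adjusted p = 0.344 by limma) and 0.43 (adjusted p = 0.00232 by edgeR). CDC25C was at 0 reads in at least 1 WT mouse. It could therefore pass the filter on low counts in mice only with the help of KO libraries, and it is counted among the 2 of 5.

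Of the genes for cyclin degradation, 2 of 7 were higher in mice and 5 of 6 in rats, beside 6.36% and 21.4% of all symbols. CDC20, which directs mitotic cyclins to the anaphase-promoting complex, changed by 1.91 and 1.47, and UBE2C, a ubiquitin-conjugating enzyme of that complex, by 1.05 and 2.59. FBXO5 (0.42 and 0.48) and UBE2S (0.16 and 0.44) passed in rats and not in mice. Of the cyclins outside the division cycle, 1 of 11 was higher in mice, and of 10 in rats 1 was higher and 3 were lower, shares near those of all symbols (6.36% higher in mice, 21.4% higher and 22.6% lower in rats). The one that rose in both was CCNG1, a known p53 target, by 0.58 in each, and CCNY had log2 fold changes of -0.29 in rats, which passed, and -0.04 in mice, which did not.

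**Figure D5:**
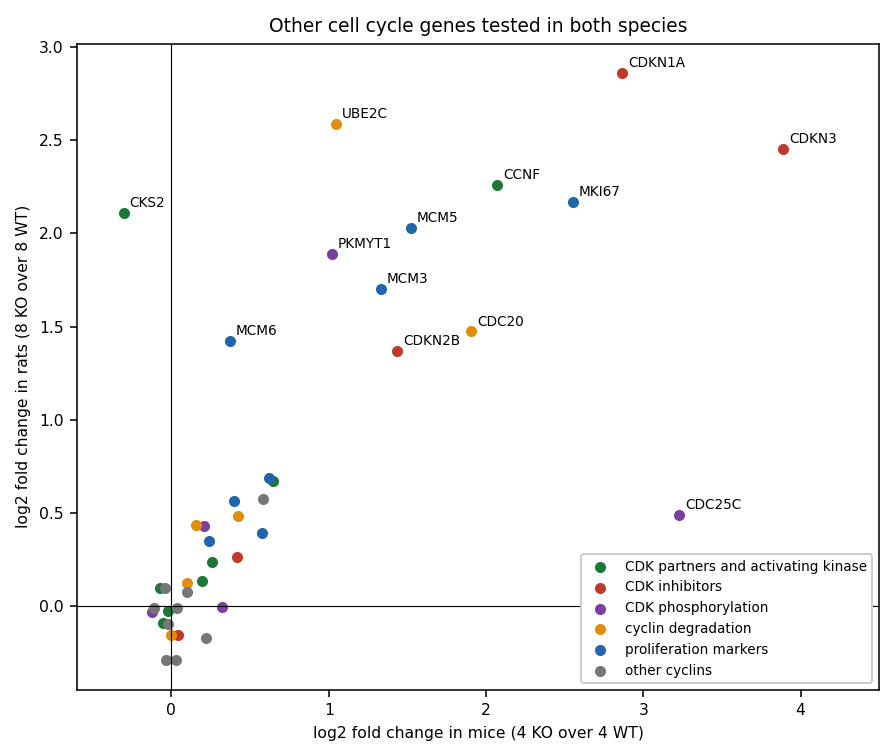
Log2 fold change in mice (x axis) against that in rats over both ranges (y axis) for the other cell cycle genes tested in both species, coloured by list, with names for the genes farthest from 0. CDKN1A, CDKN3, CCNF, MKI67, MCM3 and MCM5 are high on both axes, and CKS2 and CDC25C lie off to 1 side. Of the other cyclins, CCNG1 lies at 0.58 on both axes and the rest lie nearer 0.

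Markers of other cell types moved with these genes. Over all symbols 6.36% were higher and 2.29% lower in KO mice, and 21.4% higher and 22.6% lower in KO rats. Of the macrophage markers 9 of 10 were higher in KO mice and 8 of 9 in KO rats. Their summed scaled values were 4.92 to 6.12 in KO and 3.30 to 3.50 in WT mice, and their summed CPM were 178 to 202 against 114 to 148 in rats 17-24 and 340 to 499 against 161 to 205 in rats 25-32. Of the fibroblast markers 4 of 8 were higher in mice (summed scaled values 7.51 to 8.40 in KO, 4.38 to 5.93 in WT) and 6 of 7 in rats (325 to 432 against 263 to 292 CPM in rats 17-24, 473 to 533 against 258 to 298 in rats 25-32). Lymphocyte markers were higher for 0 of 10 in mice and 5 of 7 in rats, with MS4A1 at 0 in at least 1 WT animal of rats 17-24, at summed CPM of 28.03 to 30.8 against 17.4 to 24.2 and of 50.8 to 60.03 against 29 to 34.6. No macrophage or fibroblast marker was at 0 in any animal. Proximal tubule markers went the other way, with 1 of 10 lower in mice (summed scaled values 276 to 295 in KO, 296 to 387 in WT) and 6 of 8 lower in rats (9133 to 9525 against 10610 to 12720 CPM in rats 17-24, 6972 to 8550 against 13480 to 15420 in rats 25-32). Markers of the later tubule were higher for 0 of 9 in mice and for 3 of 6, with 1 lower, in rats, and of the podocyte and endothelium markers 1 of 8 was lower in mice and 4 of 7 in rats. Their part in the changes of the cyclins and CDKs was not tested.

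The genes whose log2 CPM went most closely with each member over the 16 rats differed between members. CDK1 was followed by PRC1, CDCA3 and KIF20A (Pearson r = 0.992, 0.990 and 0.989), and CCNA2 by NUSAP1, FAM111A and AURKB (0.985, 0.984 and 0.984). CCNE1 was followed by C1orf21, CDT1 and MCM6 (0.980, 0.979 and 0.974), and CCNE2 by NSD2, C18orf54 and SH3BGRL (0.903, 0.889 and 0.882). For the others the nearest were DFFA, UPP2 and PRR36 for CCND1 (0.876, 0.873 and 0.872), PEX16, SLC25A42 and HPN for CCND3 (0.888, 0.849 and 0.849), and NYNRIN, C11orf1 and PTPRO for CDK2 (0.950, 0.947 and 0.945). The rats were of both genotypes and both number ranges, and group means were not taken off, so r takes in the differences between these groups. It describes these 16 libraries and carries no test. In the 8 mice, which were not used to choose them, r with CDK1 was 0.996, 0.968 and 0.980 for its 3 genes, and r with CDK2 was 0.440, -0.397 and 0.343 for its 3. In the same order, r in mice was 0.967, 0.685 and 0.991 for CCNA2, and 0.90, 0.54 and 0.60 for CCNE1. It was 0.53, 0.59 and 0.42 for CCNE2, 0.37, 0.28 and 0.73 for CCND1, and 0.59, 0.22 and 0.18 for CCND3. The mice too were of both genotypes, so r in mice also takes in the difference between KO and WT.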

How the data were processed

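RNA from kidney of 8 mice and 16 rats was sequenced by the authors from stranded mRNA libraries as paired reads of 100 nucleotides. The submitters' processing notes name bcl2fastq 2.20, STAR 2.7.3, DESeq2 1.24.0, R 3.6.1 and the builds rn5 and mm10, with no role or order; the counter, the annotation and filters are not given in the sources used here. For mice the authors deposited a normalized signal per symbol, which the values show to be 0.5 added to the reads of a symbol and to the 75th percentile of its library before the first is divided by the second; whole reads were recovered for 99.0% of values within 0.01. For rats the deposited estimated counts are reads with 1/6 added and no scaling; 1/6 was taken off and the rest rounded, and 97.7% were whole. Table columns matched sample titles, and groups came from the genotype labels.

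Tests ran in R 4.3.3. For mice, limma 3.58.1 with a mean-variance trend and robust variances was fitted to log2 of the deposited signal, with edgeR's filter on low counts run on the recovered reads and no further pseudocount. For rats, edgeR 4.0.16 was used, with TMM, its filter on low counts and robust quasi-likelihood tests, in 1 fit of 4 groups, genotype by number range. Effects of both species were compared with limma on values scaled as in the mouse table. Benjamini-Hochberg adjustment ran over all symbols tested, calls were made under an adjusted p of 0.05, and intervals are 95% intervals. The scripts were tested on simulated data. Depth sets the counting error, which weighs most for rare genes, and differences between groups are also limited by how many animals there were. No pair of libraries within a group agreed within sampling noise (chi-square per degree of freedom at least 12.3 in mice and 8.6 in rats).

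The members, lists and tests were chosen with earlier results of these data known. The named genes are all members, CTNS, in each cell cycle list up to 4 genes that passed in mice or in rats over both ranges with the same sign in both, by the smaller of the 2 changes, and the 3 symbols most like each member over the rats. The lists of cell cycle genes and of cell type markers were written by hand. Exon lengths and mouse positions came from GENCODE vM21 (GRCm38). Alternatives tried were other normalizations, tools, filters and pseudocounts (DESeq2 1.42.0 among them), ranges fitted alone or left out, and each animal left out in turn; scaling by library totals was added after the data were seen.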

Additional observations from a re-analysis of the deposited data

Results flagged for a closer look

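CDK1 was flagged because the KO effect differed between the number ranges of rats: it was larger in rats 25-32 by 0.73 on the log2 scale (edgeR, adjusted p = 0.0124), with 17.2 to 18.6 CPM in KO rats 25-32 and 7.31 to 11.2 CPM in KO rats 17-24, all 4 of the former above all 4 of the latter. CDK1 was 1 of 7 members to pass, near the 14.7% of all symbols that passed. What the ranges stand for is not given, and its part was not tested.

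Of 48 groups of 4 animals, 3 held a value far from the others, where about 1 group in 20 would by chance. CCND2 of KO mouse 5 was the lowest of its group at 0.388 (scaled value). CCND3 of KO rat 20 was the highest among KO rats 17-24 at 76.3 CPM. CCNE2 of WT rat 27 was the highest among WT rats 25-32 at 2.61 CPM.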

How the results depend on the processing

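No paired analysis was possible because the labels do not say which KO and WT animals came from the same litter. The 5 mouse calls, with CCNB1 counted, and the rat calls of CCNA2, CDK1 and CCNE1 kept their direction and stayed called under every alternative run, leave-one-out fits included. CCNB1 passed the filter on low counts in the main mouse fit only through the KO mice, and its call keeps that limit here. The rat calls of CCND1 over both ranges and in rats 17-24, of CCNE2 within a range and of CDK2 between WT ranges did not stay called, as given with their values above. Counts over all symbols moved to 751 in mice (1163 before) with log2(value + 1) and no filter, and to 3180 in rats over both ranges (5211 before) without the range term.

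For the change of the KO effect between ranges, 2 members passed by DESeq2, and 3 members and 2656 symbols with library totals (1 and 1745 before); 2 members passed in the species comparison with log2(value + 1), where CDK1 turned to 0.1335. Scaling by library totals, added after the data were seen, moved the median of all symbols by 0.07 in mice, by 0.1 in rats over both ranges, by 0.17 in rats 25-32, by 0.14 for the change between ranges and by -0.13 between WT ranges. The share of calls that were higher went from 73.5% to 91.5% in mice (61.6% with DESeq2), from 48.6% to 75.5% in rats over both ranges, from 47.5% to 76.6% in rats 25-32, from 48.2% to 86.9% for the change between ranges and from 55.4% to 22.3% between WT ranges. Uncalled signs that turned under it were CDK2 over both ranges (0.0191), CCND3 (0.0616) and CDK2 (0.0444) in rats 25-32, CCND3 (0.1256), CCNE2 (0.0019) and CDK2 (0.0506) in the change between ranges, and CCND3 (-0.0871) and CCNA2 (-0.0929) between WT ranges. The causes were not tested.

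With each animal left out in turn, called symbols ranged from 646 to 1420 in mice (lowest without KO mouse 6 or 5), from 503 to 890 in rats 17-24 (lowest without rat 21 or 24) and from 1010 to 2392 for the change between ranges (lowest without rat 28, 22 or 27). Called members ranged from 3 to 5 in rats 17-24, from 1 to 2 for the change between ranges and between WT ranges, and from 0 to 1 between species. Uncalled values crossed 0: CCND3 (-0.0457 to 0.019) and CCNE2 (-0.2794 to 0.0108) for the change between ranges, CCND3 (-0.0012 to 0.0637), CCNE1 (-0.1907 to 0.1031) and CCNA2 (-0.076 to 0.1559) between WT ranges, and CCND3 (-0.026 to 0.0708), CCNA2 (-0.3312 to 0.1438) and CDK1 (-0.4155 to 0.0326) between species. Where a group was left with 3 animals the spread was pooled with the other groups. Low read numbers limit CCNB1, CCNE1 and CCNE2 in mice.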
